A study of Mus musculus with 6 samples.

Results

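The genes described here are 31 genes of cholesterol metabolism, measured in neutrophils that had been sorted from the uteri of a mouse model of uterine tumours. They were chosen by name, as 18 enzymes of cholesterol synthesis, 5 genes that control the sterol regulatory element binding proteins (SREBPs), 5 liver X receptor (LXR) genes and targets, and 3 genes of cholesterol transport and storage. Their Ensembl identifiers were matched to symbols in GENCODE M21, and all 31 were found among the 43432 genes of each table. All mice were 4 weeks old, of strain C57BL/6 and of the PRPL model, in which the Pgr promoter drives a Cre recombinase in the uterus, and the control mice carried the same alleles. The 3 normoxia libraries came from mice kept at ambient O2, and the 3 hyperoxia libraries came from mice kept in a chamber at 60% oxygen from postnatal day 18 to day 28. Neutrophils were sorted from the whole digested uterus as CD45+ Ly6Ghi CD11b+ cells. Whether the libraries came from separate animals or litters is not stated in the labels, and the p-values then reflect only how these 6 samples vary, part of which may be technical variation. The series' title names relief of tumour hypoxia and the tumour-killing capacity of neutrophils, and the comparison here was hyperoxia against normoxia.

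Cells make cholesterol from acetyl-CoA by way of mevalonate, the isoprenoid farnesyl diphosphate, squalene and lanosterol, and several of the oxidation steps use molecular oxygen. When sterols in the endoplasmic reticulum run low, SCAP escorts SREBP to the Golgi, where it is cleaved and released to switch on the synthesis genes. INSIG proteins hold the SCAP and SREBP complex back when sterols are plentiful. LXRs are nuclear receptors for oxidised sterols and switch on genes that export cholesterol, such as the transporters ABCA1 and ABCG1, so synthesis and efflux usually answer sterol levels in opposite directions. In neutrophils, cholesterol content and ABC transporter function are known to bear on mobilisation and activation.

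The libraries held between 38683293 and 61715617 counts, and between 17437 and 18984 genes had a count. Markers fitted the label, since S100a8 and S100a9, calprotectin subunits of neutrophils, reached 13229.6 to 44924.7 and 14553.9 to 38823.1 CPM. The 8 neutrophil markers summed to 34634.6 to 53505.6 CPM in normoxia and 32677 to 99286.1 CPM in hyperoxia. Ly6g, which was sorted on, ran from 53.4 to 146 CPM in normoxia and from 38.9 to 351 CPM in hyperoxia, with replicate 2 the highest. CPM is the usual count scaled by library size, with that size adjusted here by edgeR's TMM factors. Hyperoxia replicate 2 stood apart from every other library: its counts differed from them by chi-square values of 473 to 726 per degree of freedom, against 29.8 to 221 among the other pairs. It was the highest library for 26.1% and the lowest for 26.0% of the 12908 genes tested. Summed markers of macrophages and of endothelium were higher in every hyperoxia library than in any normoxia library. The 12 macrophage markers summed to 398 to 490 CPM in normoxia and 622 to 919 CPM in hyperoxia, with 11 of 12 above 0 in log2 difference and none at a count of 0 in any library. The 10 endothelial markers summed to 8.99 to 15.2 CPM in normoxia and 29.2 to 78.0 CPM in hyperoxia, with all 10 above 0. Cdh5, Tek and Tie1 were at 0 counts in 1 normoxia library each. In normoxia Cdh5 had 3, 0 and 11 counts, Kdr 4, 3 and 21, Tek 0, 1 and 1, and Tie1 0, 12 and 1. The macrophage marker Mrc1 had 8, 8 and 23. These genes passed the filter on low counts only with the hyperoxia libraries, so their direction was tied to that filter. The 6 epithelial markers summed to 68.1 to 153 CPM in normoxia and to 203, 10.9 and 171 CPM in hyperoxia replicates 1, 2 and 3. Stromal markers summed to 17.6 to 55.8 CPM in normoxia and 34.4 to 238 CPM in hyperoxia, T cell markers to 1.15 to 2.29 and 2.88 to 10.1 CPM, and B cell markers to 1.33 to 2.44 and 1.97 to 7.37 CPM. The part of these cells in the results below was not tested.

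Of the 12908 genes tested, edgeR's quasi-likelihood test called 0 (0%) at an adjusted p under 0.05. At an unadjusted p under 0.05, 9.1% of the genes were higher in hyperoxia and 3.91% were lower. DESeq2 on the same genes called 3.57% higher and 0.403% lower at an adjusted p under 0.05. The 3 hyperoxia libraries lay wholly above the 3 normoxia libraries for 9.56% of the genes, and wholly below them for 10.3%. No member of the set passed an adjusted p under 0.05 in either tool. The differences given below are therefore descriptions of these libraries. The median log2 difference over all genes tested was 0.04.

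The synthesis enzymes as a group had higher values in hyperoxia, and the LXR, efflux and handling genes did not. Of the 18 synthesis enzymes, 17 had enough counts to be tested, and 16 of those had a log2 difference above 0, with a median of 0.59. Over all genes tested, 6932 were above 0 and 5976 below. At an unadjusted p under 0.05, 5 of 17 enzymes were higher (29.4%, beside 9.1% of all genes) and 0 were lower. These were Mvk, Fdps, Lss, Cyp51 and Nsdhl. The groups did not overlap for Hmgcs1, Mvk, Fdps, Cyp51 and Nsdhl, again 5 of 17 (29.4%, beside 9.56% of all genes), and no enzyme lay wholly lower in hyperoxia. Scaling by plain library size also left 5 without overlap, with Pmvk in the place of Fdps.

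The stretches of promoter below are shown for 3 of the 5 enzymes whose groups did not overlap, because sterol control of these genes is read through such sequences. They are RefSeq sequences of build GRCm38.p6, each the 150 bases before the annotated transcription start on the coding strand, 5′ to 3′. Capitals mark the core of a sterol regulatory element (TCACNCCAC, the site that SREBP binds) and CCAAT boxes (CCAAT, or ATTGG on the other strand), which bind NF-Y, a factor known to work with SREBP.
Hmgcs1, chr13:119690201-119690350, plus strand: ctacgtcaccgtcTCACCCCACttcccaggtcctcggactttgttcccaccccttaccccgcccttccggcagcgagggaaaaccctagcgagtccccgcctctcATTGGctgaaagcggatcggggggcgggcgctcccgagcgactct
Mvk, chr5:114444119-114444268, plus strand: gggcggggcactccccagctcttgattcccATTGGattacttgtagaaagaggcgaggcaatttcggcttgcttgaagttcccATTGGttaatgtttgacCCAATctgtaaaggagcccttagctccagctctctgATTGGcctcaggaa
Nsdhl, chrX:72918371-72918520, plus strand: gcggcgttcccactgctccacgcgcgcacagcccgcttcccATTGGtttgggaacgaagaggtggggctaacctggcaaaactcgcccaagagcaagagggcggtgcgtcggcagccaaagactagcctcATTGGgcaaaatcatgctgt
The Hmgcs1 stretch held 1 sterol element core, with its first base at -137 from the start, and 1 CCAAT box. The Mvk stretch held 4 CCAAT boxes and the Nsdhl stretch held 2, and neither held an exact core. In whole windows of 250 bases before to 50 after each start, searched on both strands, the core was present in 1.44% of 27025 genes and in 1 of the 15 synthesis enzymes that had a window. With up to 1 mismatch it was present in 26.7% of all genes, in 7 of those 15 and in 5 of the 11 other members that had a window. CCAAT was found in 14 of the 15 enzymes and in 41.1% of all genes, and in 7 of the 11 other members. The GC box GGGCGG, a site of the factor Sp1, was found in 14 of the 15 enzymes, in 9 of the 11 other members and in 38.2% of all genes. An E-box, CACGTG, was found in 3 of the 15 enzymes, in 3 of the 11 other members and in 8.09% of all genes. A match describes letters in the window only.

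The early enzymes, which carry acetyl units to farnesyl diphosphate, numbered 7, and 6 of them were tested. Of the 6, 5 were above 0, with a median log2 difference of 0.55. Fdps, which makes farnesyl diphosphate, the branch point to sterols, ubiquinone and prenylated proteins (chromosome 3, 89093588 to 89101959, GRCm38), had 4.87, 5.37 and 8.12 CPM in normoxia and 8.98, 11.8 and 9.41 CPM in hyperoxia. All 3 hyperoxia libraries were above all 3 normoxia libraries, and the log2 difference was 0.72 ± 0.26 (SE, unadjusted p = 0.0246, edgeR adjusted p = 0.31). Of its exonic 50-base sequences, 26.2% also occur in other genes, chiefly Gm43738 (23.4%) and Gm3571 (12.1%), so part of its reads may have been lost or misplaced.

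Mvk, the mevalonate kinase (chromosome 5, 114444269 to 114460591), had 0.819, 1.04 and 1.57 CPM in normoxia against 2.20, 1.66 and 2.34 CPM in hyperoxia. The groups were close but did not overlap, at a log2 difference of 0.85 ± 0.37 (unadjusted p = 0.048, edgeR adjusted p = 0.379). Hmgcs1, the synthase that makes HMG-CoA and a classical SREBP target (chromosome 13, 119690379 to 119708260), had 5.01, 4.24 and 5.14 CPM in normoxia and 6.40, 11.2 and 5.47 CPM in hyperoxia. Hyperoxia replicate 2 was the highest and replicate 3 barely cleared the normoxia range. The difference was 0.68 ± 0.31 on the log2 scale (unadjusted p = 0.0566, edgeR adjusted p = 0.395), and 0.33 without hyperoxia replicate 2.

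Pmvk, the next kinase, had a log2 difference of 0.41 ± 0.24, and Acat2, the cytosolic acetyl-CoA acetyltransferase, had 0.35 ± 0.38. Both had overlapping groups. Acat2 shares 39.1% of its exonic 50-base sequences with other genes, chiefly its neighbour Acat3. Mvd, the decarboxylase that makes isopentenyl diphosphate, was the only tested enzyme below 0, at -0.06 ± 0.19, with 22.7 to 24.5 CPM in normoxia and 18.8 to 24.5 CPM in hyperoxia. It had the highest level per length of all synthesis enzymes in normoxia, 12.7 RPKM, which is CPM per kilobase of exon, level with Sc5d at 12.6 RPKM. Idi1, the isomerase that follows, was left out of the test for low counts. It had 3, 3 and 9 counts in normoxia and 6, 20 and 4 counts in hyperoxia, at or near a floor of 3 counts.

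The late enzymes turn farnesyl diphosphate into squalene, lanosterol and cholesterol. All 11 were tested and all 11 were above 0, with a median log2 difference of 0.59. Nsdhl, a dehydrogenase that helps remove the C4 methyl groups of lanosterol (chromosome X, 72918557 to 72958514), had 2.11, 2.26 and 2.41 CPM in normoxia. In hyperoxia it had 3.41, 7.11 and 3.51 CPM, so the groups were separate and replicate 2 was the highest. The log2 difference was 1.05 ± 0.35 (unadjusted p = 0.0163, edgeR adjusted p = 0.277). This was the lowest p of the synthesis enzymes, and it stayed under 0.05 unadjusted with each single library left out, at a log2 difference of 0.63 without hyperoxia replicate 2.

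Cyp51, the lanosterol demethylase (chromosome 5, 4081145 to 4104746), had 6.81, 5.83 and 6.86 CPM in normoxia and 9.49, 12.4 and 7.43 CPM in hyperoxia. The groups did not overlap and the log2 difference was 0.59 ± 0.25 (unadjusted p = 0.043, edgeR adjusted p = 0.369). Part of its exons overlaps Akap9 on the opposite strand, whose reads cannot be told apart without a strand setting, so its level is uncertain to that extent. Lss, which closes the squalene epoxide into lanosterol (chromosome 10, 76531588 to 76557138), had 0.608, 0.532 and 1.39 CPM in normoxia against 2.73, 1.159 and 2.13 CPM in hyperoxia. Its difference was 1.25 ± 0.50 (unadjusted p = 0.0369, edgeR adjusted p = 0.355), and ranged from 0.98 without hyperoxia replicate 1 to 1.87 without normoxia replicate 3. Its groups overlapped, since hyperoxia replicate 2 lay below normoxia replicate 3. Lss was also among the scarcest, at 0.0781 ± 0.0439 RPKM in normoxia (SD, n = 3) over a union of exons that includes retained introns.

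Among the other late enzymes, Hsd17b7 had a log2 difference of 0.87 ± 0.53, which was 1.59 without normoxia replicate 3. The values were, for Dhcr7 0.78 ± 0.39, for Tm7sf2 0.65 ± 0.65 and for Sqle, the squalene epoxidase, 0.55 ± 0.46. Each of these 4 had at most 6.52 CPM in any library, and the groups of each overlapped. The more abundant late enzymes had smaller differences: Fdft1, the squalene synthase, had 0.16 ± 0.22, Sc5d 0.11 ± 0.26 and Ebp 0.09 ± 0.29. Fdft1 shares exonic sequence with its neighbour Ctsb, an abundant protease gene, so its level is uncertain. Msmo1, the C4 sterol methyl oxidase, had 34.8, 26.9 and 32.7 CPM in normoxia and 32.7, 67.5 and 31.7 CPM in hyperoxia. Its difference of 0.48 ± 0.31 lay in hyperoxia replicate 2, and was 0.05 without that library.

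**Figure D1:**
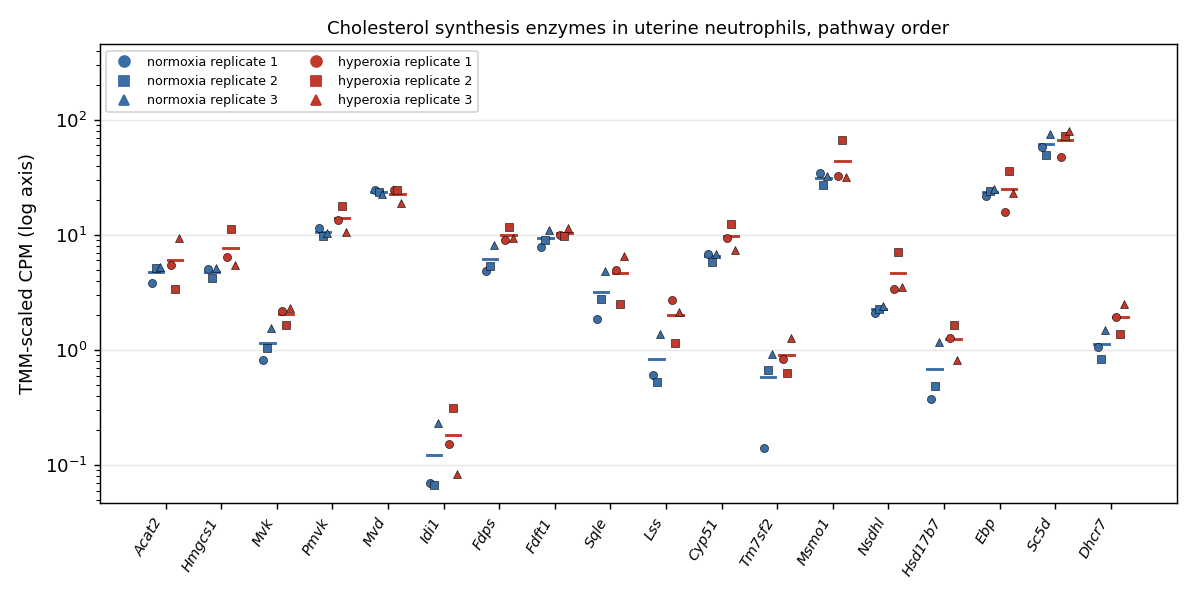
TMM-scaled CPM of the 18 synthesis enzymes in each library on a log axis, in pathway order, with bars at the group means of 3 libraries. Hmgcs1, Mvk, Fdps, Cyp51 and Nsdhl have all hyperoxia points above all normoxia points, and Idi1 lies near the floor.

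The size of the difference went with the level of the enzyme. The 12 tested enzymes with a mean under 10 CPM had a median log2 difference of 0.70, and all 5 with an unadjusted p under 0.05 were among them. The 5 enzymes at 10 CPM or more, Pmvk, Mvd, Msmo1, Ebp and Sc5d, had a median of 0.11. Over all genes the same split gave medians of 0.16 for 8076 genes under 10 CPM, 12.0% of them higher at an unadjusted p under 0.05, and -0.06 for 4832 genes above it, 4.28% of them higher. So the background was itself level-dependent, in the same direction as the enzymes.

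**Figure D2:**
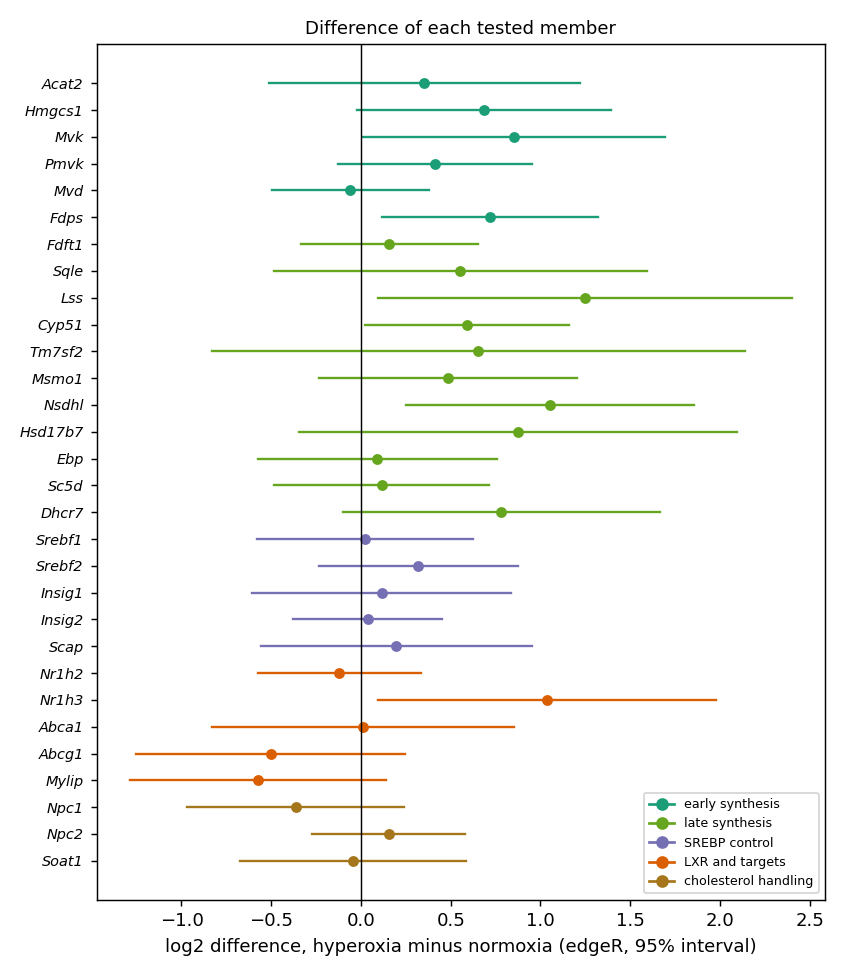
Log2 difference, hyperoxia minus normoxia, of the 30 tested members with 95% intervals from edgeR, coloured by role. Of the synthesis enzymes 16 of 17 lie right of 0, and the intervals of Mvk, Fdps, Lss, Cyp51, Nsdhl and Nr1h3 do not cross 0 before adjustment.

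The genes that control SREBP had smaller differences than the enzymes. All 5 were tested and all 5 were above 0, but the median was 0.11, within a range of 0.02 to 0.32, 0 of 5 had an unadjusted p under 0.05, and no groups were separate. Srebf2, the SREBP that drives cholesterol synthesis, had 33.1, 24.5 and 25.2 CPM in normoxia and 39.3, 39.0 and 25.0 CPM in hyperoxia. Hyperoxia replicates 1 and 2 were above every normoxia library and replicate 3 was within them, and the log2 difference was 0.32 ± 0.24 (95% interval -0.24 to 0.87, edgeR adjusted p = 0.621). Srebf1, which mainly drives fatty acid synthesis and is itself an LXR target, had 43.1, 36.6 and 30.2 CPM against 50.5, 32.2 and 28.8 CPM. The groups lay over each other, with a difference of 0.02 ± 0.26 that changed sign in some analyses.

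Scap, the escort of SREBP, had 3.49, 3.24 and 2.93 CPM in normoxia and 2.28, 3.82 and 4.94 CPM in hyperoxia, a difference of 0.20 ± 0.33 that was -0.07 without hyperoxia replicate 3. Insig1, which is induced by SREBP and retains it, had 2.83, 3.15 and 2.90 CPM against 2.05, 3.68 and 3.87 CPM, a difference of 0.11 ± 0.32 that was -0.04 without hyperoxia replicate 3. In both, hyperoxia replicate 1 was the lowest of the 6 libraries. Insig2, the paralogue not dependent on SREBP, was nearly level at 0.04 ± 0.18. Per length, Insig2 at 6.15 RPKM stood above Insig1 at 0.957 RPKM in normoxia.

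The LXR genes and their efflux targets gave no common direction. Of the 5, 2 were above 0 and 3 below, with a median log2 difference of -0.12. Nr1h2 (LXR beta) was the main LXR of these cells, at 44.2 RPKM in normoxia beside 1.22 RPKM for Nr1h3 (LXR alpha). Nr1h2 had 160, 147 and 138 CPM in normoxia and 144, 149 and 116 CPM in hyperoxia, a difference of -0.12 ± 0.20 with overlapping groups. Nr1h3, the LXR known for its expression in macrophages and liver (chromosome 2, 91184061 to 91202834), had 2.67, 3.30 and 3.21 CPM in normoxia and 7.34, 2.76 and 8.75 CPM in hyperoxia. Hyperoxia replicates 1 and 3 were above every normoxia library, while replicate 2 was within them. The difference was 1.03 ± 0.41 on the log2 scale (unadjusted p = 0.035, edgeR adjusted p = 0.349), 1.41 without hyperoxia replicate 2 and 0.72 without hyperoxia replicate 3. The macrophage marker sums were also higher in hyperoxia, at 622, 724 and 919 CPM in replicates 1, 2 and 3. The epithelial sums in the same libraries were 203, 10.9 and 171 CPM. The part of either cell type in the Nr1h3 difference was not tested.

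Abcg1, which exports cholesterol to mature HDL (chromosome 17, 31057675 to 31117988), had 117.5, 130.7 and 128.6 CPM in normoxia and 101.9, 46.1 and 117.9 CPM in hyperoxia. Replicate 2 was far below the rest, and the difference of -0.50 ± 0.33 (unadjusted p = 0.161) became -0.17 without it. Mylip, the LXR-induced ubiquitin ligase that degrades lipoprotein receptors (chromosome 13, 45389742 to 45412022), had 32.2, 40.7 and 36.8 CPM in normoxia and 25.7, 13.9 and 34.1 CPM in hyperoxia. Again replicate 2 was the lowest, and the difference of -0.57 ± 0.31 (unadjusted p = 0.103) became -0.27 without it. Abca1, which loads cholesterol onto lipid-poor apolipoprotein (chromosome 4, 53030787 to 53159895), had 72.9, 60.5 and 59.1 CPM in normoxia and 105.8, 35.9 and 52.1 CPM in hyperoxia. Its groups spanned each other, with a difference of 0.01 ± 0.37 (95% interval -0.83 to 0.85) whose sign depended on the library left out. At the level of RNA per length, Abcg1 at 17.2 RPKM exceeded Abca1 at 6.19 RPKM in normoxia.

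The genes that handle cholesterol inside the cell also showed no shared direction, with a median of -0.05 over 3. Npc1, the lysosomal membrane protein that exports cholesterol from lysosomes, had 15.8, 16.3 and 17.1 CPM in normoxia and 16.1, 8.17 and 13.9 CPM in hyperoxia. Its difference of -0.36 ± 0.26 (unadjusted p = 0.205) was -0.10 without hyperoxia replicate 2. Npc2, the soluble partner that hands sterol to Npc1, had 192, 183 and 190 CPM in normoxia and 228, 210 and 192 CPM in hyperoxia, at 0.15 ± 0.19. Those groups met without a gap, since the highest normoxia and the lowest hyperoxia library were nearly equal. Soat1, which esterifies cholesterol for storage, had 137, 115 and 101 CPM against 160, 95.6 and 86.3 CPM, at -0.05 ± 0.28 with wide overlap.

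**Figure D3:**
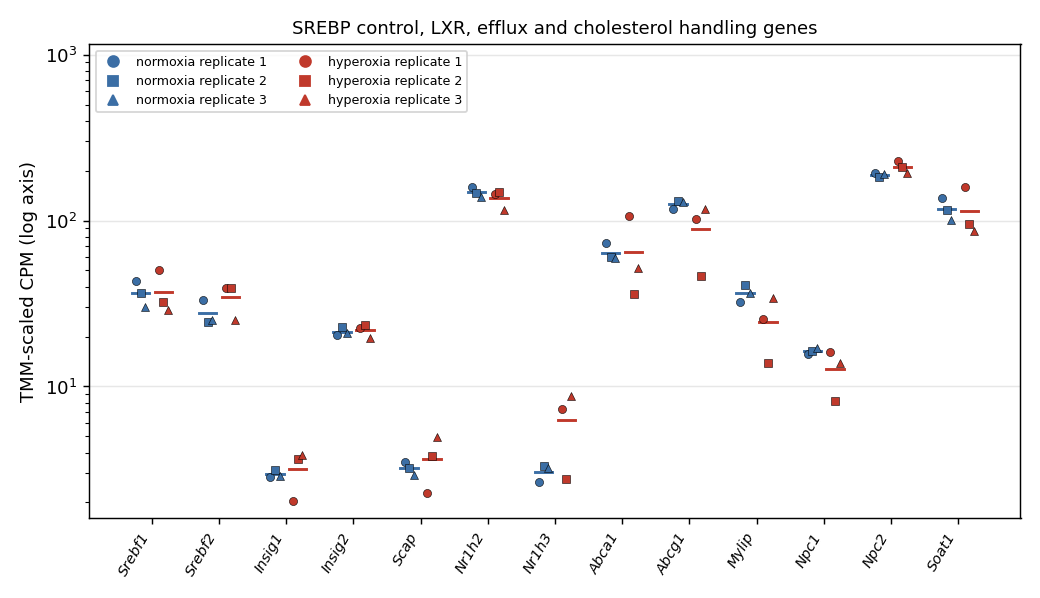
TMM-scaled CPM of the SREBP control, LXR, efflux and handling genes in each library on a log axis, with bars at the group means of 3 libraries. Hyperoxia replicate 2 is the lowest point for Abca1, Abcg1, Mylip and Npc1, and Nr1h3 has 2 hyperoxia points above and 1 within normoxia.

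Library by library, the medians of the synthesis and efflux lists differed in how evenly they were spread, but the lists differ in size, at 17 and 8 genes. Single enzymes were not all as even as the median, as given above for Msmo1. For each library the median over genes of log2(CPM + 0.5) minus the normoxia mean was taken. For the 17 synthesis enzymes it was -0.10, -0.10 and 0.25 in normoxia and 0.39, 0.42 and 0.39 in hyperoxia. Thus on this median each hyperoxia library lay above each normoxia library. In each hyperoxia library 15 of 17 enzymes were above the normoxia mean, a count for which no share of all genes was taken. The summed CPM of the 18 enzymes did overlap, at 186, 172 and 217 in normoxia and 192, 283 and 226 in hyperoxia. For the 8 LXR, efflux and handling genes it was -0.01, -0.01 and 0.01 in normoxia and 0.12, -0.55 and -0.16 in hyperoxia. Hyperoxia replicate 2 set the low value and was the lowest library for 4 of the 8 genes, while it was the highest for 8 of the 17 enzymes. As given above, that library was the extreme one for the largest share of all genes in each direction. For the 5 SREBP control genes the values were 0.10, 0.01 and -0.11 in normoxia and 0.08, 0.22 and -0.12 in hyperoxia, overlapping throughout.

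**Figure D4:**
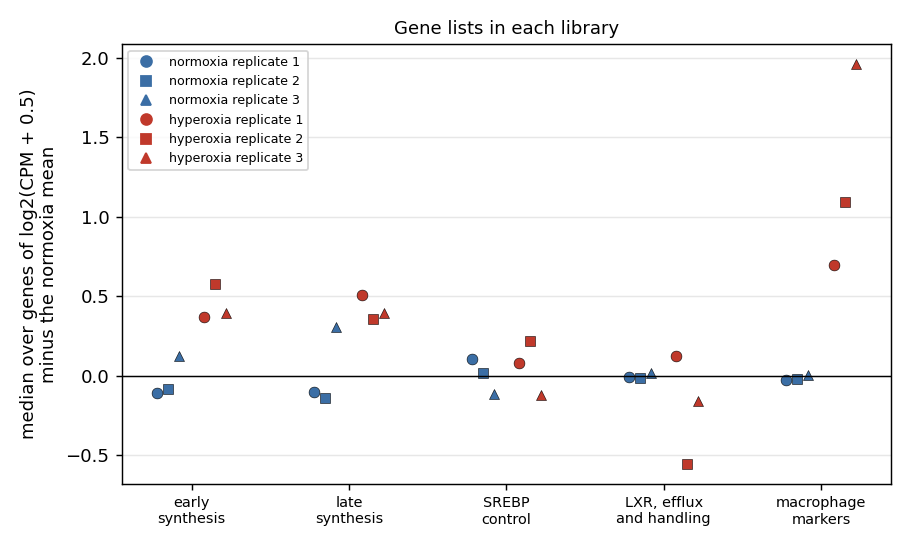
Median over the genes of each list of log2(CPM + 0.5) minus the normoxia mean, 1 point per library. Early and late synthesis lie above the normoxia points in all 3 hyperoxia libraries, the SREBP control and the LXR, efflux and handling lists do not, and the macrophage markers lie highest.

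Other genes of the same pathways were taken as whole lists, and none passed an edgeR adjusted p under 0.05. In the fatty acid arm of SREBP, 11 of 13 genes were tested, and 9 were above 0 with a median of 0.32. At an unadjusted p under 0.05, 1 was higher (9.09%, level with the 9.1% of all genes). It was Elovl5, a fatty acid elongase, at 0.90 ± 0.35. The next lowest p was that of the desaturase Fads1, at 0.76 ± 0.61. Of 8 genes for SREBP processing and sterol sensing in the endoplasmic reticulum, 5 were above 0 with a median of 0.02. Erlin1, a sterol-binding membrane protein, was wholly higher at 0.90 ± 0.38, and at 0.39 without hyperoxia replicate 2. In the isoprenoid branch of 11 genes the median was -0.04, with 5 above 0 and 6 below. The groups lay wholly lower for 3 of the 11, beside 10.3% of all genes, and wholly higher for 0. At an unadjusted p under 0.05, 1 of the 11 was lower, beside 3.91% of all genes. The 2 with the lowest p were both wholly lower. Ggps1, which draws farnesyl diphosphate towards prenylation, was at -0.47 ± 0.19 (unadjusted p = 0.0354), opposite in sign to Fdps. Icmt, which methylates prenylated proteins, was at -0.51 ± 0.25.

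The tested genes of oxysterol metabolism all had a log2 difference above 0, the smallest that of Hsd3b7 at 0.46 ± 0.24. The groups of Hsd3b7 overlapped, and 83.1% of its exonic 50-base sequences also occur in other genes, so its level is uncertain. Of 6 genes that make, break down or sense oxysterols, 4 were tested, and all 4 were above 0 with a median of 1.55. DESeq2 called 2 of the 4 higher, beside 3.57% of all genes tested. Cyp27a1, the sterol 27-hydroxylase, had 0.796, 0.909 and 0.771 CPM in normoxia and 2.25, 3.84 and 3.56 CPM in hyperoxia. The groups were far apart, at 1.96 ± 0.34 (edgeR adjusted p = 0.106, DESeq2 adjusted p = 8.68e-05). Gpr183, a receptor for oxysterols that steers immune cells, had 2.25, 2.06 and 2.98 CPM against 5.69, 6.47 and 10.2 CPM, at 1.62 ± 0.31 (edgeR adjusted p = 0.117, DESeq2 adjusted p = 0.000302).

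Of 12 LXR partners and further targets, 11 were above 0 with a median of 0.39. DESeq2 called 3 of the 12 higher, beside 3.57% of all genes tested. Pltp, the phospholipid transfer protein and an LXR target, had 2.60, 3.30 and 2.44 CPM in normoxia and 5.03, 18.4 and 18.7 CPM in hyperoxia, at 2.34 ± 0.47 (edgeR adjusted p = 0.126, DESeq2 adjusted p = 8.68e-05). Hyperoxia replicate 1 was the nearest to normoxia. Part of the Pltp exons overlaps Ctsa on the opposite strand, with 10.8% of the exonic 50-base sequences shared, so its level is uncertain to that extent. Apoe, the lipoprotein component that takes up exported cholesterol, was separate too, at 1.29 ± 0.29 (edgeR adjusted p = 0.143, DESeq2 adjusted p = 0.00156). The third was Abcg2, named after its value was seen, at 2.24 ± 0.59. Abca1 and Abcg1, targets of the same receptors, had differences of 0.01 and -0.50 in the same libraries. Macrophages are known to express Cyp27a1, Pltp and Apoe strongly. Of 12 macrophage markers, 8 were higher at an unadjusted p under 0.05 (66.7%, beside 9.1% of all genes), with a median of 1.58. The count was 9 of 10 for endothelial markers, with a median of 3.39, and 6 of 6 for tested stromal markers, with a median of 2.36. It was 4 of 5 for T cell and 3 of 4 for B cell markers, and 0 of 8 for neutrophil and 0 of 6 for epithelial markers. Some of these markers passed the filter only with the hyperoxia libraries, as given above. What part other cells in the sort had in these values was not tested, and more cells of a type cannot be told apart from more RNA per cell.

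Sterol traffic and hydrolysis, a list of 14 genes, split evenly with 7 above and 7 below 0 and a median of 0.01. Soat2, the cholesterol esterifying enzyme best known from liver and intestine, was abundant in normoxia at 108, 124 and 106 CPM, which is 50.8 ± 4.34 RPKM (SD, n = 3) beside 12.0 ± 1.82 RPKM for Soat1. In hyperoxia it had 84.5, 39.5 and 79.5 CPM, wholly lower at -0.73 ± 0.29 (unadjusted p = 0.037, edgeR adjusted p = 0.355), and -0.44 without hyperoxia replicate 2. Vldlr, a lipoprotein receptor, was wholly higher at 1.22 ± 0.52, from levels under 0.5 CPM in every library. It had 9, 9 and 5 counts in normoxia and 19, 30 and 15 counts in hyperoxia. It therefore passed the filter on low counts only through the hyperoxia libraries, and its direction was tied to that filter.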

How the data were processed

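RNA-seq was compared in 6 libraries, 3 per group, grouped by the housing condition in the labels. Replicates are numbered by deposition order, which pairs none of them. For every library the authors deposited unnormalized counts by Ensembl gene. The submitters' processing notes name STAR 2.4.2a, DESeq2 1.16.1 and the build GRCm38. The read counter, its strandedness and its annotation are not given in the sources used here, so overlapping genes on opposite strands cannot be told apart. RNA came from an RNeasy Micro kit, per the labels' protocols. Of 43432 gene IDs, 42548 matched GENCODE M21.

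Genes were filtered with filterByExpr, scaled by TMM and tested with edgeR 4.0.16 (robust quasi-likelihood, two-sided, in R 4.3.3), and p-values were adjusted by Benjamini-Hochberg across the 12908 genes that passed. Log2 differences had a median standard error of 0.34, with a biological coefficient of variation of 36.3%. A level per length (RPKM) is TMM-scaled CPM per kilobase of the union of exons. Reads can be PCR copies of one another. Every pair of libraries differed beyond sampling noise. Medians and counts of lists carry no test. Alternatives were DESeq2 1.42.0, limma-voom 3.58.1, RLE scaling, no filter, at least 10 counts in 3 libraries, a threshold of 0.1 and leaving out each library. Exonic sequences of 50 bases were compared among M21 genes. Members and lists were chosen with earlier results of these data known. Values in every library are given for the 3 members with the lowest p in each role and for those whose groups do not overlap, with some others added, and for other lists the 2 genes with the lowest p are named, apart from items that are not reported here.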

Additional observations from a re-analysis of the deposited data

How the results depend on the processing

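Depth limited Idi1, which was near the floor of 3 counts. The 16 of 17 synthesis enzymes above 0 became 15 to 17 over all settings. Genes called numbered 513 with DESeq2, 214 with no filter, 30 at a threshold of 0.1 and 0 to 176 with 1 library left out, the 176 without hyperoxia replicate 1. No member was called in any of these. The synthesis median ranged from 0.49 to 0.80 with 1 library left out, the higher without normoxia replicate 3. The number of enzymes at an unadjusted p under 0.05 ranged from 1 to 6: it was 1, Nsdhl, without normoxia replicate 1 or without normoxia replicate 2, 3 without hyperoxia replicate 1, and 6 with DESeq2. The LXR, efflux and handling median ranged from -0.43, without hyperoxia replicate 1, to 0.078, without normoxia replicate 1, and its genes below 0 numbered from 3 to 6. Of 462 single-gene values, 433 kept direction and side of the threshold, 18 changed sign and 11 passed it (Pltp, Apoe, Cyp27a1 and Gpr183, with DESeq2, no filter or without hyperoxia replicate 1, the last for Gpr183 excepted). With limma-voom, Srebf1 was at -0.0080 and Abca1 at -0.13. With 1 library left out, ranges crossing 0 were -0.10 to 0.056 for Mvd, -0.17 to 0.0056 for Nr1h2, -0.34 to 0.15 for Soat1, -0.034 to 0.35 for Sc5d, -0.52 to 0.32 for Abca1, -0.23 to 0.23 for Srebf1, -0.25 to 0.37 for Ebp, -0.11 to 0.66 for Acat2, -0.042 to 0.38 for Insig1 and -0.072 to 0.47 for Scap. The cause was not tested. The median of all genes was 0.11 with no filter and at most 0.12 with 1 library left out. Counts of non-overlapping enzymes under other scalings were added after seeing the data, as were the counts above and below 0. No paired analysis was possible because the labels give no batch, litter or pairing.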
